A study of Mus musculus with 12 samples.

Results

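The Slc25 genes encode a family of membrane carriers, most of them in the mitochondrial inner membrane. Members were taken as every feature of the expression table whose symbol is Slc25a followed by a number, which gave 47 genes of 56162 features. Each carrier is a small membrane protein that passes a particular solute between cytosol and matrix, such as ADP against ATP, phosphate, keto acids, aspartate and glutamate, acylcarnitines, amino acids, cofactors or metals. In muscle the ADP/ATP carrier and the phosphate carrier serve ATP synthase, and the aspartate/glutamate and oxoglutarate carriers form the membrane part of the malate-aspartate shuttle, which brings the reducing power of cytosolic NADH into mitochondria. A few relatives that carry other names, the uncoupling proteins among them, lie outside the symbol rule and are described near the end.

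RNA was sequenced from myofibers of male C57BL/6J mice labelled 8 weeks old, with no word on whether that age is before or after training. The 4 groups had 3 libraries each: type I fibres of soleus from trained mice, type I fibres from untrained mice, type IIb fibres of extensor digitorum longus from trained mice, and type IIb fibres from untrained mice. Training was treadmill running for 6 weeks, on 5 days a week, for 60 min at 12 to 16 m/min, and mice were killed 3 days after the last run. Fibres were freed with collagenase for 90 min from soleus and for 60 min from extensor digitorum longus, then typed by the myosin heavy chain protein in a piece of the same fibre, so fibre type, muscle and digestion time cannot be told apart here. The labels do not say which libraries share a mouse or how many fibres each holds, and the p-values therefore reflect the spread among libraries alone, part of which may be technical.

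Library totals ran between 8026397 and 24995288 counts, and 3636 to 14428 genes had at least 10 counts. The 7 type I markers, slow myosin and troponin genes among them, summed to 37299 to 68453 CPM (counts scaled to library total) in type I libraries and to 1.05 to 31.4 CPM in type IIb libraries. The 7 type IIb markers summed to 305 to 4389 CPM in type I libraries and to 81278 to 158420 CPM in type IIb libraries, so every library matched its labelled type. All 8 endothelial markers had counts in type I trained, type I untrained and type IIb trained libraries, with sums of 1.03 to 35.9, 16.9 to 644 and 0.0 to 141 CPM, and none had a count in type IIb untrained libraries. The 6 fibroblast markers summed to 2.67 to 115 CPM in type I trained, 13.9 to 8753 CPM in type I untrained, 0.105 to 148 CPM in type IIb trained and 0.103 to 1.18 CPM in type IIb untrained libraries. In such bulk libraries fewer cells of a type and less RNA per cell cannot be told apart. Expression levels below are FPKM, counts that the authors divided by library total and by gene length, and small members are given as raw counts.

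A pair of genes held most of the carrier message. Slc25a4 (the ADP/ATP carrier ANT1) and Slc25a3 (the phosphate carrier) together took 84.3 ± 3.29% of all Slc25 counts in type I trained, 80.2 ± 5.67% in type I untrained, 86.3 ± 4.63% in type IIb trained and 82.4 ± 2.05% in type IIb untrained libraries (SD, n = 3 each). The whole family took 6021 ± 390 CPM in type I trained and 5959 ± 1164 CPM in type I untrained libraries, against 4991 ± 963 CPM in type IIb trained and 4682 ± 402 CPM in type IIb untrained libraries. The spread within groups exceeded the trained minus untrained gap in either fibre type. Fibre types overlapped, with 4633 CPM in type I untrained library 3 and 6066 CPM in type IIb trained library 3. These CPM were scaled to library total. The factors of TMM, the normalisation of the count test, were 1.54 and 0.909 in those libraries. The higher type I means are thus given for total-count scaling alone. Next in mean level came Slc25a11 (oxoglutarate carrier), Slc25a12 (aspartate/glutamate carrier 1), Slc25a5 (ADP/ATP carrier ANT2) and Slc25a36 (a pyrimidine nucleotide carrier). Only 7 members, Slc25a3, Slc25a4, Slc25a5, Slc25a11, Slc25a12, Slc25a16 and Slc25a46, reached 10 counts in all 12 libraries. Slc25a2 and Slc25a32 had no count in any library, which allows up to 3 counts, or 0.12 to 0.374 CPM by library.

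**Figure D1:**
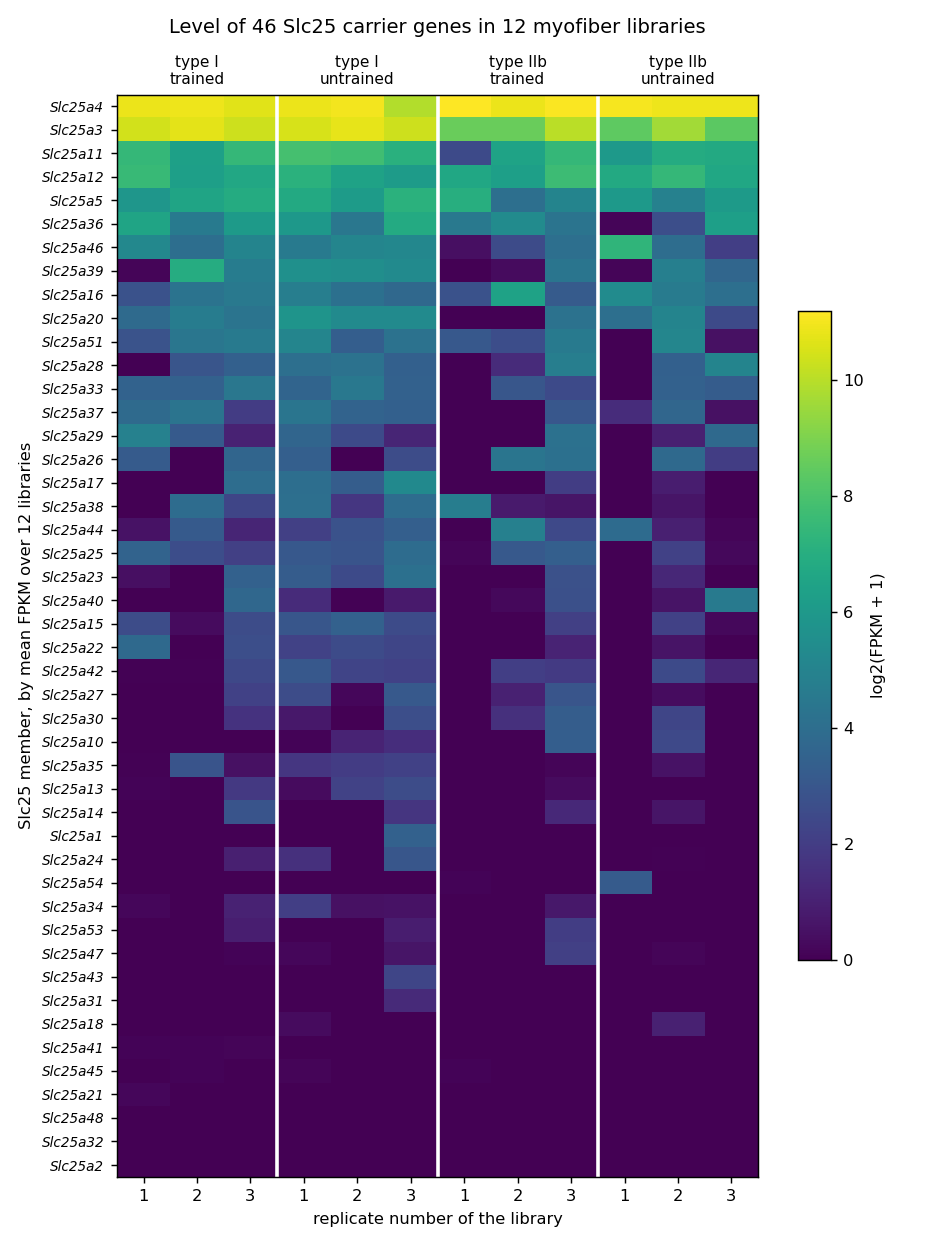
Colour gives log2(FPKM + 1) of 46 of the 47 Slc25 genes (down the page, by mean FPKM) in the 12 libraries (across, by group and replicate number). Slc25a4 and Slc25a3 are bright in every library, the next few members are moderate, and most lower members are dark in type IIb trained library 1 and type IIb untrained library 1.

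Slc25a3 (ENSMUSG00000061904, mm10 chromosome 10, 91116574 to 91124059) and Slc25a4 (ENSMUSG00000031633, chromosome 8, 46206797 to 46211284) lie on the minus strand. Their promoter windows are shown because these members had the highest mean FPKM. Each runs from 250 bases before to 50 bases after the gene start of RefSeq (build GRCm38.p6), 5′ to 3′ on the gene's strand. Capitals mark matches to TATAA (letters of the TATA box), TGACG (core of the cAMP response element), AAGGTCA (a motif of estrogen-related receptors) or TGCGCA (core of the NRF1 site), searched on both strands, with no base in more than 1 match. The Slc25a3 window covers chr10:91123918-91124217 and the Slc25a4 window chr8:46211013-46211312.
Slc25a3: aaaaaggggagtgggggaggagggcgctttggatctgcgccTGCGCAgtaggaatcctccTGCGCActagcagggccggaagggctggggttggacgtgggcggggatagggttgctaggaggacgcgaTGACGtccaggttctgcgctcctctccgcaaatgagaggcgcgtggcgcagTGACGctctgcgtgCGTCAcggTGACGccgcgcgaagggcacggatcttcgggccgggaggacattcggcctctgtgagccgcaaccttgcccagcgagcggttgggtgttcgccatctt
Slc25a4: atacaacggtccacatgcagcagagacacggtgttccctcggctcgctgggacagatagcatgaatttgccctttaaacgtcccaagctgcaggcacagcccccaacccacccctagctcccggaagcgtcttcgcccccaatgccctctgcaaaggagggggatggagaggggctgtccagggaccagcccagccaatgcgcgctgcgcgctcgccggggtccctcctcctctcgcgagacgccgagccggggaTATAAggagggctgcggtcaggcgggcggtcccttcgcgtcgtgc
The Slc25a3 window holds TGACG at 4 places and TGCGCA at 2, and the Slc25a4 window holds TATAA once, beginning at base 256 of the window. The TATAA letters lie after the RefSeq start. For both genes that start lies inside the gene as listed, which ends at 46211284 for Slc25a4 and 91124059 for Slc25a3. The TGACG matches that begin at -70, -56 and -48 from the RefSeq start of Slc25a3 thus lie inside the listed gene. RefSeq windows were found for 36 of the 47 members. They have 46 windows, since a gene can have several. TGACG occurred in 28.3% of those 46 windows against 20.8% of all 32851 windows, TGCGCA in 8.7% against 7.76%, TATAA in 10.9% against 24.9% and AAGGTCA in 2.17% against 4.72%. These matches describe letters and show neither binding nor a cause.

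Slc25a3 imports the phosphate that ATP synthase joins to ADP. It is spliced into a heart and skeletal muscle form and a widespread form, which gene-level counts do not tell apart. It had 1387, 1699 and 1295 FPKM in type I trained and 1468.5, 1743 and 1294.5 FPKM in type I untrained libraries, against 399, 389 and 1032.5 FPKM in type IIb trained and 342, 787 and 325 FPKM in type IIb untrained libraries. Every type I library lay above every type IIb library, and type IIb trained library 3 and type IIb untrained library 2 were the highest of their fibre type. Slc25a3 was the only tested member without overlap between the 6 type I and 6 type IIb libraries in FPKM, a pattern that 3.4% of all tested genes showed in that direction. On CPM scaled by TMM, the normalisation of the count test, type I libraries ran from 1199 to 3028 and type IIb libraries from 538 to 1702.5, which overlap. On that scale 2.5% of all tested genes, and no member, were higher without overlap. Averaged over training, its log2 fold change, type I over type IIb, was 1.07 ± 0.34 (SE, 12 libraries) with an unadjusted p of 0.00572 and an adjusted p of 0.1004 in edgeR's quasi-likelihood test, so it was not called at 0.05. The median over all tested genes was 0.60 on the same scale. The difference was 1.11 ± 0.49 in untrained mice (adjusted p = 0.242) and 1.03 ± 0.49 in trained mice (adjusted p = 0.618). It stayed positive in all 21 alternative analyses, between 0.77 and 1.58, and was called in 2 of them, limma on log2(FPKM + 1) (1.58, adjusted p = 0.0146, with 5.11% of all genes called) and on log2(FPKM + 0.1) (1.58, adjusted p = 0.0136, with 4.83% called). The median of all genes was 0.76 in the first of these and 1.47 in the second. The pseudocount adds to every value, so such a log2 difference understates the change of low genes.

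Slc25a4 exchanges matrix ATP for cytosolic ADP and is the main such carrier of muscle. It had 1859, 1924 and 1654.5 FPKM in type I trained and 1852, 2029.5 and 951 FPKM in type I untrained libraries, against 2322, 1827 and 2221 FPKM in type IIb trained and 2072.5, 1891 and 1913 FPKM in type IIb untrained libraries. The fibre types overlapped, with type I untrained library 3 far below the rest. That library also had the highest fibroblast marker sum (8753 CPM) and the largest total (24995288 counts). The part of either in its low Slc25a4 value was not tested. Its log2 fold change averaged over training was -0.64 ± 0.27 (SE), with an unadjusted p of 0.0306 and an adjusted p of 0.228 in edgeR's test. The sign was thus opposite to that of Slc25a3 and to the median of all genes. It stayed negative in all 21 alternatives, between -1.17 and -0.29, and was called by limma-voom with quality weights alone (adjusted p = 0.0273).

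Since a ratio of genes within a library does not depend on how libraries are scaled, the level of Slc25a3 was divided by that of Slc25a4. The FPKM ratio was 0.746, 0.883 and 0.782 in type I trained and 0.793, 0.859 and 1.36 in type I untrained libraries, against 0.172, 0.213 and 0.465 in type IIb trained and 0.165, 0.416 and 0.17 in type IIb untrained libraries. The 6 type I libraries lay above the 6 type IIb libraries without overlap. Group means were 0.804 ± 0.071 in type I trained, 1.00 ± 0.31 in type I untrained, 0.283 ± 0.159 in type IIb trained and 0.250 ± 0.144 in type IIb untrained libraries (SD, n = 3 each). Trained and untrained libraries overlapped within each fibre type. The ratio was formed with these values known, so it is given as a description with no test. It shows unequal change of the 2 genes and does not say which of them differed. The authors' listed lengths, 1493 bases for Slc25a3 and 1600 for Slc25a4, set the size of the ratio, against 5550 and 2353 exon bases in GENCODE M21. They equal the M21 exon bases for 5 of the 47 members, so the order of members by FPKM rests on the listed lengths, while a comparison of 1 gene or of this ratio between libraries does not.

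**Figure D2:**
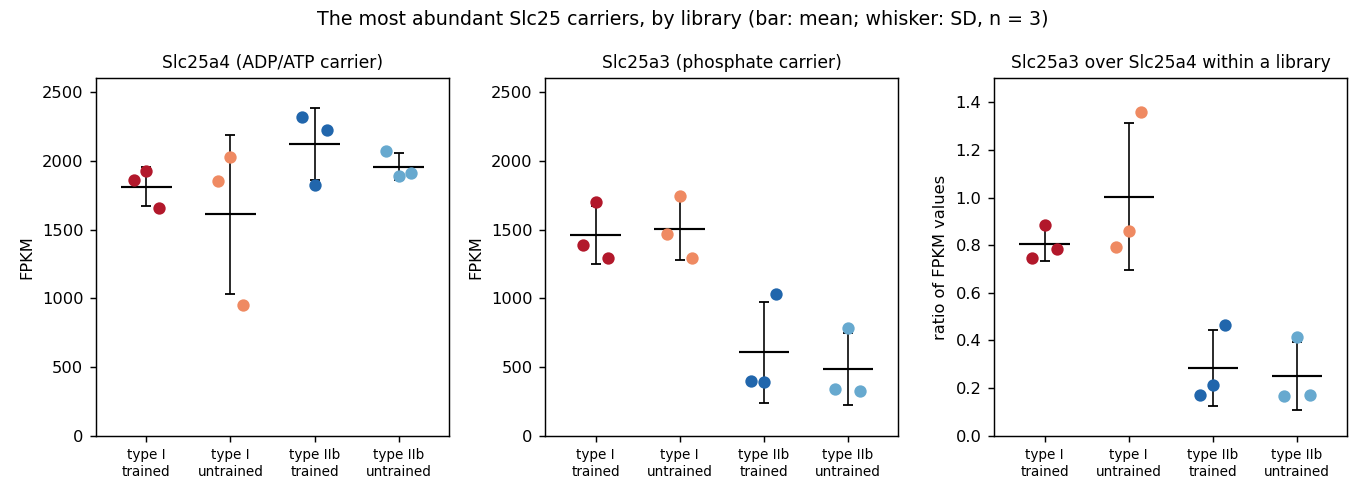
Points are libraries, horizontal bars group means and whiskers SD (n = 3); the left and middle panels give FPKM of Slc25a4 and Slc25a3, and the right panel their FPKM ratio, Slc25a3 over Slc25a4. Slc25a3 and the ratio (0.746 or more in type I, 0.465 or less in type IIb) separate the fibre types, while Slc25a4 overlaps.

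No other carrier passed edgeR's test either. Of the 47 members, 35 passed the expression filter. Averaged over training, edgeR called 0 of the 35 between type I and type IIb fibres at an adjusted p under 0.05, where 1.93% of the 11747 genes tested were called. At an unadjusted p under 0.05 there were 7 members, Slc25a3, Slc25a4, Slc25a10, Slc25a13, Slc25a24, Slc25a34 and Slc25a35, against 16.9% of all genes. The members' median log2 fold change was 1.00 with 24 of 35 positive, beside 0.60 and 65.1% positive over all genes. In untrained mice 0 members were called (0.46% of all genes) and 4 had an unadjusted p under 0.05 (17.5% of all genes). In trained mice 0 members were called (0.536% of all genes) and 2 had an unadjusted p under 0.05 (8.03% of all genes). Limma-voom called 4 members in the averaged comparison (9.13% of all genes), with Slc25a4 lower and Slc25a20, Slc25a35 and Slc25a37 higher in type I fibres, 6 in untrained mice (16.2% of all genes), with Slc25a4 lower and Slc25a17, Slc25a23, Slc25a34, Slc25a35 and Slc25a38 higher, and 0 in trained mice (1.23% of all genes). DESeq2 called Slc25a10 in the averaged comparison (9.18% of all genes) and in trained mice (2.95% of all genes), and 0 members in untrained mice (8.78% of all genes).

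Members whose groups did not overlap were counted beside all tested genes. In untrained mice 14 of the 35 tested members had every type I library above every type IIb library in FPKM, and 30.1% of all tested genes did so. On TMM-scaled CPM the count was 8, beside 22.8% of all genes, and Slc25a4 and Slc25a12 were lower without overlap, beside 4.88% of all genes. In trained mice Slc25a3 and Slc25a33 were higher without overlap in FPKM, beside 9.07% of all genes. On TMM-scaled CPM, Slc25a33 and Slc25a46 were higher in trained type I libraries without overlap, beside 6.72% of all genes, and Slc25a4 was lower, beside 3.77%. How many members a library showed moved with how many genes it showed. Members with at least 10 counts numbered 19, 20 and 34 in type I trained, 30, 28 and 39 in type I untrained, 10, 18 and 32 in type IIb trained and 11, 28 and 19 in type IIb untrained libraries. The genes with at least 10 counts in the same libraries numbered 6082, 6517 and 11852 in type I trained, 11703, 9711 and 14428 in type I untrained, 4291, 5910 and 10932 in type IIb trained and 3636, 9170 and 6002 in type IIb untrained libraries. The part of library breadth in the differences of low members was not tested.

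**Figure D3:**
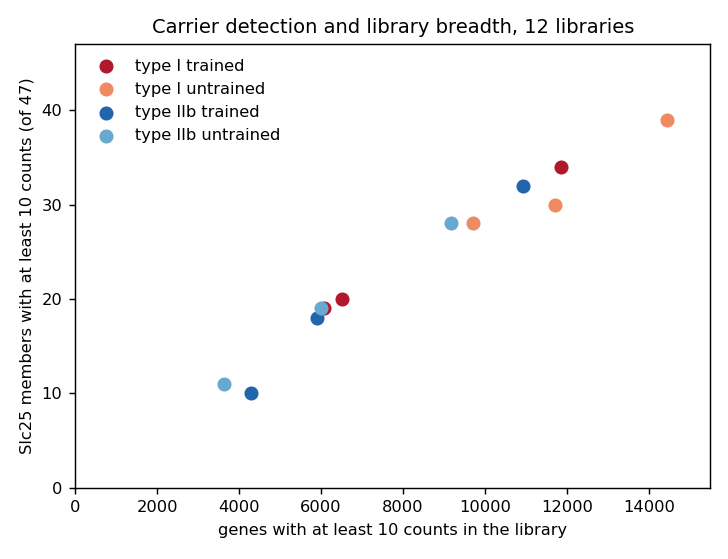
Each point is a library, with the genes of at least 10 counts on the x axis and the Slc25 members of at least 10 counts (of 47) on the y axis, coloured by group. Members climb with genes, between 10 members in type IIb trained library 1 and 39 in type I untrained library 3, and groups overlap.

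Among the 9 carriers of ADP/ATP, ATP-Mg and phosphate, 7 were tested. EdgeR called 0 of them in each of the 7 comparisons, beside 0.0% to 1.93% of all genes. Slc25a5, the ADP/ATP carrier of many dividing cells, had 57.9, 90.7 and 116 FPKM in type I trained and 111, 69.9 and 139 FPKM in type I untrained libraries, against 129, 16.0 and 32.4 FPKM in type IIb trained and 63.6, 29.4 and 68.0 FPKM in type IIb untrained libraries. The trained groups overlapped. The untrained groups did not in FPKM (69.9 against 68.0 at the nearest), as for 30.1% of all tested genes in that direction. They did overlap on TMM-scaled CPM. The log2 fold change averaged over training was 0.31 ± 0.71 (adjusted p = 0.944). Slc25a5 made up 4.69 ± 1.77% of the summed FPKM of Slc25a4 and Slc25a5 in type I trained, 7.23 ± 4.88% in type I untrained, 2.53 ± 2.40% in type IIb trained and 2.65 ± 0.993% in type IIb untrained libraries (SD, n = 3 each). The mean was 4.50% in type I untrained libraries without library 3 and 1.15% in type IIb trained libraries without library 1, both computed after the data were seen. Slc25a24, a calcium-regulated ATP-Mg/phosphate carrier, had 0, 0 and 28 counts in type I trained and 47, 0 and 361 counts in type I untrained libraries, against 0 counts in each type IIb trained and 0, 1 and 0 counts in type IIb untrained libraries. Type I untrained library 3 held 82.6% of its counts. Without the 3 libraries highest in endothelial markers its fibre type difference in untrained mice turned to -1.80; the type I untrained library that remained had no count. Slc25a31, the ADP/ATP carrier of germ cells, had 82 counts, all in type I untrained library 3. Slc25a41 had 4 counts in all. In untrained mice Slc25a17, which sits in peroxisomes, and ATP-Mg/phosphate carriers Slc25a23 and Slc25a25 lay higher in type I fibres without overlap on both scales. That held for 30.1% of all tested genes in FPKM and 22.8% on TMM-scaled CPM. EdgeR called none of these carriers.

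EdgeR called neither abundant carrier of the malate-aspartate shuttle between fibre types. Slc25a12 (Aralar), which exports aspartate for glutamate, had 184, 79.0 and 104 FPKM in type I trained and 142, 85.1 and 69.8 FPKM in type I untrained libraries, against 100.5, 78.8 and 199 FPKM in type IIb trained and 111, 176 and 100.3 FPKM in type IIb untrained libraries. All 4 groups overlapped in FPKM. On TMM-scaled CPM the type I untrained libraries lay below the type IIb untrained ones, beside 4.88% of all tested genes. The log2 fold change averaged over training was -0.60 ± 0.47 (adjusted p = 0.626). Slc25a11, which exchanges oxoglutarate for malate, had 175, 80.1 and 173 FPKM in type I trained and 234, 218 and 136 FPKM in type I untrained libraries, against 4.77, 89.4 and 173 FPKM in type IIb trained and 62.6, 115 and 108 FPKM in type IIb untrained libraries. Its untrained groups did not overlap in FPKM, as for 30.1% of all tested genes in that direction, but did on TMM-scaled CPM. Type IIb trained library 1 was the lowest of all, and the averaged log2 fold change was 0.43 ± 0.69 (adjusted p = 0.888). Of the exons of Slc25a11, 8.92% overlap Rnf167.

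Among 13 enzymes that work with these carriers 12 were tested. Averaged over training, edgeR called 2 of them higher and 1 lower in type I fibres, beside 1.93% of all genes. In the other 6 comparisons 0 were called, beside 0.0% to 0.536% of all genes. Mdh1, the cytosolic malate dehydrogenase of the same shuttle, had 3121, 1725 and 2444 FPKM in type I trained and 2016.5, 2273 and 1773 FPKM in type I untrained libraries, against 255, 343 and 692.5 FPKM in type IIb trained and 69.3, 548 and 303 FPKM in type IIb untrained libraries. Every type I library was above every type IIb library, with a log2 fold change of 2.20 ± 0.42 (adjusted p = 0.00677). Ckmt2, the mitochondrial creatine kinase that uses ATP delivered by the ADP/ATP carrier, had 5166, 2007 and 2939 FPKM in type I trained and 2573, 2281 and 1586.5 FPKM in type I untrained libraries, against 154, 263 and 1078 FPKM in type IIb trained and 267, 912.5 and 421.5 FPKM in type IIb untrained libraries. These did not overlap in FPKM either, and the log2 fold change was 2.02 ± 0.44 (adjusted p = 0.0197). On the TMM scale of that test the fibre types did overlap for Ckmt2. Type I untrained library 3 has a TMM factor of 1.54 and type IIb trained library 3 a factor of 0.909, which reverses their order. Gpd1, the cytosolic enzyme of the glycerol phosphate shuttle, which needs no carrier of this family, had 0.0, 1.53 and 0.491 FPKM in type I trained and 12.5, 3.74 and 0.124 FPKM in type I untrained libraries, against 30.7, 71.0 and 105 FPKM in type IIb trained and 180, 89.4 and 60.0 FPKM in type IIb untrained libraries. It was lower in type I fibres without overlap, with a log2 fold change of -5.89 ± 1.17 (adjusted p = 0.00944). Its mitochondrial partner Gpd2, picked after its values were seen, had 0.0 to 15.02 FPKM in type I and 3.58 to 104 FPKM in type IIb libraries and was not called (-3.15 ± 1.03, adjusted p = 0.105). Non-overlap of all 12 libraries in FPKM was seen for 3.4% of tested genes in the higher and 0.749% in the lower direction. The Gpd1 call was lost without the 3 libraries highest in endothelial markers (adjusted p = 0.189), the Mdh1 call with limma-voom (0.0593) and the Ckmt2 call in 8 of 21 alternatives. Over the 21 alternatives the log2 fold change ran from -7.05 to -4.95 for Gpd1, from 1.84 to 2.87 for Mdh1 and from 1.62 to 2.66 for Ckmt2.

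**Figure D4:**
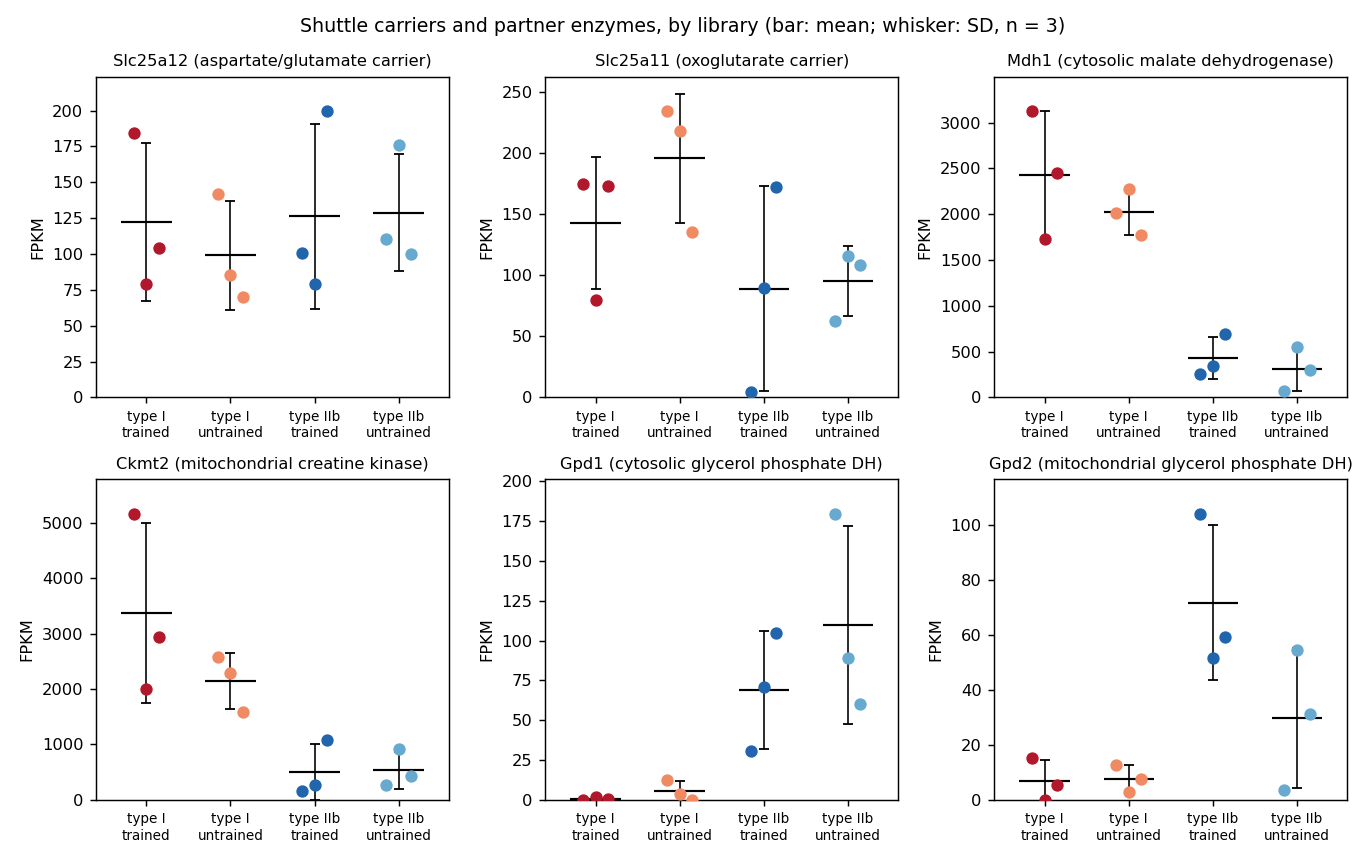
Points are libraries (FPKM, each panel on its own axis), horizontal bars group means and whiskers SD (n = 3), cut at 0; panels show Slc25a12, Slc25a11, Mdh1, Ckmt2, Gpd1 and Gpd2. All type I points lie above all type IIb points for Mdh1 and Ckmt2 and below them for Gpd1, while the carriers Slc25a12 and Slc25a11 overlap.

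The other 6 carriers of keto acids and glutamate were scarce. Slc25a13 (citrin), the aspartate/glutamate carrier of liver, had 1, 0 and 58 counts in type I trained and 5, 76 and 203 counts in type I untrained libraries, against 0, 0 and 6 counts in type IIb trained and 0 counts in each type IIb untrained library. With a floor of 3 counts over the group, the untrained type I level was at least 45.1-fold higher than that of type IIb libraries, with an edgeR adjusted p of 0.230; without type I untrained library 3 the bound was 28.7-fold. This and the other bounds without a library were added after the data were seen. Slc25a22, a glutamate carrier, had 164, 0 and 96 counts in type I trained and 54, 80 and 129 counts in type I untrained libraries, against 0, 0 and 23 counts in type IIb trained and 0, 9 and 0 counts in type IIb untrained libraries. Only the untrained groups were free of overlap, beside 30.1% of all tested genes in FPKM and 22.8% on TMM-scaled CPM. EdgeR called Slc25a22 in no comparison.

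Slc25a10, the dicarboxylate carrier, had no count in the 3 type I trained libraries and 1, 17 and 48 counts in the type I untrained libraries. It had 0, 0 and 154 counts in type IIb trained and 0, 70 and 0 counts in type IIb untrained libraries, so in type IIb fibres each group rested on 1 library. Against a floor of 3 counts over the group, type I trained libraries were at least 73.9-fold lower than type IIb trained and at least 12.6-fold lower than type I untrained libraries (7.64-fold without type I untrained library 3). Without type IIb trained library 3 no count was left for the first of these bounds. EdgeR gave adjusted p-values of 0.614 and 1.0, whereas DESeq2 called both (2.42e-07 and 1.76e-05). The DESeq2 log2 fold changes were -22.57 and -20.56, estimated for a group without any count. Slc25a1, the citrate carrier, had 213 counts in type I untrained library 3 and none elsewhere. Slc25a18 had 35 counts, 82.9% of them in type IIb untrained library 2, and Slc25a21 had 2 counts.

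Of the 6 carriers of acylcarnitine and amino acids, 5 were tested. EdgeR called 0 of them in each of the 7 comparisons, beside 0.0% to 1.93% of all genes. Slc25a20, the carnitine/acylcarnitine carrier that admits long-chain fatty acids for oxidation, averaged 19.2 ± 5.68 FPKM in type I trained and 44.8 ± 8.00 FPKM in type I untrained libraries, against 5.78 ± 10.0 FPKM in type IIb trained and 17.5 ± 13.7 FPKM in type IIb untrained libraries (SD, n = 3 each). It lies outside the rule for named members and is given because trained and untrained type I libraries did not overlap in FPKM (8.2% of all genes in that direction). They did overlap on TMM-scaled CPM, and the log2 fold change was -0.83 ± 1.90 (adjusted p = 1.0). Slc25a38, a glycine carrier needed for haem synthesis, had 0, 127 and 49 counts in type I trained and 160, 27 and 309 counts in type I untrained libraries, against 209, 5 and 7 counts in type IIb trained and 0, 7 and 0 counts in type IIb untrained libraries. Type IIb trained library 1 thus held most type IIb counts. The ornithine carrier Slc25a15, the basic amino acid carrier Slc25a29 and the branched-chain amino acid carrier Slc25a44 had group means of 1.10 to 7.34, 4.66 to 12.8 and 3.25 to 10.8 FPKM.

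Of the 12 carriers of cofactors, nucleotides and metals, 11 were tested. EdgeR called 0 of them in each of the 7 comparisons, beside 0.0% to 1.93% of all genes. The median log2 fold change of these 11, averaged over training, was -0.36 with 5 positive, beside 0.60 and 65.1% positive over all genes. The same median was 1.14 for ADP/ATP and phosphate carriers and 0.43 for keto acid and glutamate carriers. It was 1.19 for acylcarnitine and amino acid carriers and 1.28 for members with other or unknown substrates. Slc25a36 had 90.2, 22.6 and 68.1 FPKM in type I trained and 60.8, 20.9 and 112 FPKM in type I untrained libraries, against 21.7, 41.0 and 18.8 FPKM in type IIb trained and 0.107, 5.53 and 78.0 FPKM in type IIb untrained libraries. All groups overlapped, and the averaged log2 fold change was 0.64 ± 0.95 (adjusted p = 0.874). The glutathione carriers Slc25a39 and Slc25a40, the coenzyme A carriers Slc25a16 and Slc25a42, the NAD carrier Slc25a51, the S-adenosylmethionine carrier Slc25a26, the pyrimidine carrier Slc25a33 and the mitoferrins Slc25a28 and Slc25a37, which import iron, had group means between 0.797 and 48.3 FPKM. Each of them but Slc25a16 fell below 10 counts in at least 1 library. Of the exons of Slc25a33, 14.9% overlap Gm13068.

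The last 12 members have other or unknown substrates, and 7 of them were tested. Slc25a46, which lies in the outer membrane and takes part in mitochondrial dynamics, had 35.9, 15.5 and 32.2 FPKM in type I trained and 22.7, 33.1 and 34.9 FPKM in type I untrained libraries, against 0.374, 4.91 and 16.0 FPKM in type IIb trained and 159, 15.2 and 3.16 FPKM in type IIb untrained libraries. Its type IIb libraries were uneven, with 4780 counts in type IIb untrained library 1. Slc25a35 had 1, 135 and 12 counts in type I trained and 58, 78 and 176 counts in type I untrained libraries, against 0, 0 and 3 counts in type IIb trained and 0, 14 and 0 counts in type IIb untrained libraries. The averaged log2 fold change was 4.75 ± 1.98 (adjusted p = 0.217), and 31.3% of its exon bases overlap Rangrf, whose reads could not be told apart without strand. Slc25a34 had 4, 0 and 40 counts in type I trained and 99, 15 and 31 counts in type I untrained libraries, against 0, 0 and 26 counts in type IIb trained and none in type IIb untrained libraries. In untrained mice the type I level was at least 23.0-fold higher than the type IIb level (edgeR adjusted p = 0.230). The bound was 9.65-fold without type I untrained library 1 and 40.3-fold without library 3. Slc25a53 had counts in 3 libraries alone, with 21 in type I trained library 3, 37 in type I untrained library 3 and 79 in type IIb trained library 3. Slc25a54 had 128 of 129 counts in type IIb untrained library 1, and Slc25a43 had 123 counts, all in type I untrained library 3. Slc25a45, Slc25a47, Slc25a48, Slc25a14, Slc25a27 and Slc25a30, of which the last 3 resemble uncoupling proteins, had at most 4.301 FPKM as a group mean.

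EdgeR called no member for training. It called 0 of 35 members in type I fibres (0.0% of all genes), 0 in type IIb fibres (0.0%), 0 in the training effect averaged over fibre types (0.0%) and 0 in the difference between the training effects (0.0%). At an unadjusted p under 0.05 the counts were 0, 2, 0 and 1 members, beside 2.94%, 8.21%, 3.82% and 8.94% of all genes in the same order. DESeq2 called Slc25a10 in type I fibres (0.502% of all genes), in the averaged effect (1.93%) and in the interaction (3.35%), and 0 members in type IIb fibres (3.1%). Limma-voom called 0 members in type I fibres (0.0766% of all genes), type IIb fibres (0.017%), the averaged effect (0.0255%) and the interaction (0.0255%). In type I fibres the members' median log2 fold change was -0.01 beside -0.28 for all genes, and in type IIb fibres 0.30 beside 0.36. Neither abundant carrier was called for training in edgeR's test. Slc25a4 had 0.53 ± 0.39 in type I (adjusted p = 1.0) and 0.29 ± 0.38 in type IIb fibres (adjusted p = 0.973). Slc25a3 had 0.35 ± 0.48 in type I (adjusted p = 1.0) and 0.43 ± 0.48 in type IIb fibres (adjusted p = 0.945). On TMM-scaled CPM, Slc25a4 in type IIb fibres had 4556, 4274 and 3923 in trained against 3490.3, 3510.0 and 3401 in untrained libraries, without overlap, as had 2.82% of all genes in that direction; in FPKM the same groups overlapped. Slc25a12 had 0.75 ± 0.66 in type I (adjusted p = 1.0) and 0.09 ± 0.66 in type IIb fibres (adjusted p = 1.0).

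The training differences with the smallest p in type IIb fibres rested on few libraries. Slc25a46 had a log2 fold change of -2.90 ± 1.31 (unadjusted p = 0.0399, adjusted p = 0.597), which turned to 0.19 without the 2 libraries with the fewest genes. Slc25a53 was at least 31.6-fold higher in trained libraries, through the 79 counts of library 3 (adjusted p = 0.597). Slc25a34 was at least 10.4-fold higher through 26 counts of the same library (adjusted p = 0.597), and Slc25a38 was 37.9-fold higher through 209 counts of library 1 (adjusted p = 0.607). Type IIb trained library 3 also had the highest endothelial marker sum among type IIb libraries, and the part of that in these counts was not tested. In the interaction, Slc25a34 had the smallest p (-7.92 ± 3.68, unadjusted p = 0.0464, adjusted p = 0.544), and Slc25a3 and Slc25a4 had -0.08 ± 0.68 and 0.24 ± 0.54.

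Genes around the family gave no call in edgeR's test. Of 5 relatives with other names (the uncoupling proteins Ucp1, Ucp2 and Ucp3 and the outer membrane carriers Mtch1 and Mtch2), 4 were tested; of 13 genes of carrier import into the inner membrane, 13; and of 18 other transport genes of mitochondria, 17. EdgeR called 0 of these 34 in each of the 7 comparisons; averaged over training, where 1.93% of all genes were called, 1, 1 and 2 genes of the lists had an unadjusted p under 0.05, beside 16.9% of all genes. Mtch2, the relative with the highest mean level, had 82.3 to 188 FPKM in type I and 50.2 to 230 FPKM in type IIb libraries. Timm8b, a small chaperone of the intermembrane space, had 128 to 626 FPKM in type I and 203 to 913 FPKM in type IIb libraries. Vdac1, the main pore of the outer membrane, had 306 to 640 FPKM in type I and 208 to 636 FPKM in type IIb libraries. The fibre types overlapped for all 3, with averaged log2 fold changes of -0.02 ± 0.45, -1.14 ± 0.54 and -0.32 ± 0.39. Of the genes tested on these lists, Ucp2 and Timm8a1, picked after their values were seen, had no overlap of fibre types in FPKM, beside 3.4% of all tested genes. Ucp2, an uncoupling protein of many tissues, had 0.182, 2.88 and 1.27 FPKM in type I trained and 9.49, 0.135 and 56.5 FPKM in type I untrained libraries, and was listed at 0 in all 6 type IIb libraries. Type I untrained library 3 was far above the rest, and edgeR gave an unadjusted p of 0.00191 and an adjusted p of 0.0722. Timm8a1, a small import chaperone, had 24.6, 18.4 and 12.5 FPKM in type I trained and 15.4, 6.75 and 7.55 FPKM in type I untrained libraries, against 0.297, 0.175 and 4.28 FPKM in type IIb trained and 0.0, 4.05 and 0.0 FPKM in type IIb untrained libraries. Its averaged log2 fold change was 2.85 ± 1.70 (adjusted p = 0.456). Ucp3, the uncoupling protein of skeletal muscle, had 0.0 to 16.1 FPKM in type I and 0.0 to 22.4 FPKM in type IIb libraries (edgeR adjusted p = 0.706), and Ucp1 was listed at 0 in every library.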

How the data were processed

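RNA sequencing counts and FPKM values of 12 libraries in 4 groups of 3 were used. The deposited count table holds raw read counts per gene, and the deposited FPKM table holds values that the authors scaled to gene length and library total; an FPKM value equalled count over length and total within 0.1% for 94.5% of nonzero values. FPKM levels compared between genes rest on the length the authors list. Per the submitters' processing notes, TopHat2 was the aligner named and mm10 the genome build. The counting program and its annotation are not stated in the labels or file headers. Libraries were made with SMART-Seq HT and Nextera XT per the labels' protocols, which mark neither strand nor molecule, so overlapping genes cannot be told apart and floors cover counting error only. No per-sample column was left out (0 unused).

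Counts were tested in R 4.3.3 with edgeR 4.0.16 (quasi-likelihood, robust, TMM, all 12 libraries, a mean per group). The filter (minimum count 10, minimum total 15) left 11747 genes, and calls are Benjamini-Hochberg adjusted p under 0.05 over all of them. SE is the log2 fold change over the square root of F. Folds between pooled counts use TMM-scaled library sizes. Alternatives were RLE size factors, no filter, DESeq2 1.42.0, limma 3.58.1 (voom; log2 of FPKM plus 1 or 0.1), a replicate block, fits of only the groups compared, and left-out libraries. The code was tested on simulated data. Members, gene lists and left-out libraries were chosen with earlier results of these data known. Named members are those with the 6 highest mean FPKM and, in each of 7 comparisons, the 5 smallest p; genes of other lists are named where called or among the 2 with the highest mean FPKM, and exceptions are marked or complete a list. The values of 1 member are not reported here, though it is in the counts and medians. All 47 members are in GENCODE M21, 46 of them with the same coordinates as in the tables. Of possible gene copies, only Slc25a5-ps, AC162805.6 and AC162805.7 were looked up, and they had at most 4 counts in all libraries together. Other pseudogenes of the carriers were not looked up. Promoter sequences and gene starts are from RefSeq.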

Additional observations from a re-analysis of the deposited data

How the results depend on the processing

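Of 763 values of the 42 single-gene differences under alternatives, 731 kept their direction and side of the threshold. A call was gained by 10 and lost by 10, and 12 turned their sign. A further 9 could not be had because no count was left. Only the averaged fibre type differences of Gpd1, Mdh1 and Ckmt2 were called in edgeR's test. Any other difference counted as kept if it stayed uncalled with its sign, whatever its size. The averaged fibre type difference of Slc25a24, never called, ran from 0.92 to 7.24. The count of members called, 0 in each of the 7 comparisons with edgeR, was 1 with DESeq2 in 5 of them (fibre type averaged and in trained mice, training in type I fibres and averaged, and the interaction; Slc25a10 each time), 4 with limma-voom for fibre type averaged and 6 in untrained mice, and 1 with limma on log2(FPKM + 1) or log2(FPKM + 0.1) for fibre type averaged (Slc25a3). It was 0 without each replicate in turn (0 to 0) and under RLE, no filter, fits of the groups compared alone and without either set of several libraries. Same-numbered libraries had correlations of -0.121 to 0.199 in their deviations from group means. These values cannot show whether such libraries share a mouse or a day. The replicate block left 0 members called in every comparison. The block lost the Ckmt2 call (2.08, adjusted p = 0.0570).

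Signs turned without the 3 libraries highest in endothelial markers for Slc25a24 between fibre types in untrained mice (-1.80) and with training in type I (5.26), Slc25a4 with training in type I (-0.04), Slc25a5 (-0.09) and Slc25a36 (-0.19) between fibre types averaged, and Slc25a53 (4.87) and Slc25a10 (0.68) in the interaction. This set left 1 type I untrained library, assumed to vary like the others, and it held 0 counts of Slc25a24. Without the 2 libraries with the fewest genes, Slc25a46 turned with training in type IIb (0.19) and averaged (0.22). With single libraries left out, the Slc25a10 interaction ranged from -15.31 to 1.16 (positive without type IIb trained replicate 3), the averaged training difference of Slc25a53 from -0.06 (without the same library) to 6.22, and that of Slc25a10 from -7.11 to 1.06 (without type IIb untrained replicate 2). Beyond the fewer samples the cause was not tested. RLE moved the all-gene median to 0.72, against 0.60 with TMM, between fibre types averaged, to 1.17, against 0.85, in untrained mice, to -0.57, against -0.28, for training in type I, to 0.01, against 0.15, for training averaged and to -1.01, against -0.68, in the interaction. Members under about 10 counts were at the limit of these depths.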
